A study of Mus musculus with 7 samples.

Results

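The extended Ifng and Il22 locus of the mouse genome was taken as chr10:117600001-118000000 on build mm9, a stretch of 400 kb that holds the cytokine genes Ifng and Il22. It was chosen by position and not by reads. It makes up 2000 of the 13194787 windows of 200 bp, and 400 of the 2638950 bins of 1 kb, into which the genome was divided. Il22 lies at about chr10:117642000-117647000 and Ifng at about chr10:117878000-117883000, so that their starts are about 236 kb apart. Distances below are in kb from the Ifng start, negative on the Il22 side. No mm9 annotation was used, so gene bounds are approximate and exons and introns are not assigned.

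BRG1 was measured by chromatin immunoprecipitation and sequencing (ChIP-seq) with the J1 antibody in CD4+ T helper cells of 4 to 6 week old Balb/c mice, taken from lymph nodes and spleen. The groups were stimulated Th17, stimulated Th1, stimulated Th2, resting Th1, resting Th2 and naive CD62L+ cells, and an input of CD4+ T cell DNA that was not immunoprecipitated. Th17 cells were made with 100 ng/ml IL-6, 10 ng/ml IL-1β, 10 ng/ml IL-23 and 1 ng/ml TGF-β, with antibodies against IL-4 and IFNγ (10 µg/ml each). For Th1 cells, 1 ng/ml IL-12 and 10 µg/ml anti-IL-4 were used, and for Th2 cells, 10 ng/ml IL-4 and 10 µg/ml anti-IFNγ. Anti-CD3 and anti-CD28 were given at 4 and 1 µg/ml in Th17 cultures and at 1 and 2 µg/ml in Th1 and Th2 cultures, which also held 100 U/ml IL-2. The starting naive cells were 95% pure. The cells labelled stimulated spent 1.5 h in 50 ng/ml PMA and 500 ng/ml ionomycin, which together stand in for signalling through the T cell receptor. No resting Th17 library was analysed here, so Th17 cells could be compared only after stimulation.

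Each group has 1 library. Differences below have no replicate check and no p-value, and each ratio compares 2 libraries rather than 2 conditions. Intervals are exact 95% intervals and cover counting error only, since PCR reads without molecular identifiers are not independent molecules. A read was counted once for each start and strand. The libraries held between 1340208 distinct reads in resting Th2 and 7892944 in stimulated Th17, and the input 3531867. Repeats of a start and strand made up 10.2% to 11.8% of the 3 stimulated libraries and 28.5% to 41.4% of the 3 unstimulated BRG1 libraries, against 7.23% of the input. Levels are given as RPM (reads per 1000000 distinct reads). A count of 0, taken as allowing up to 3 reads, allows up to 0.380 RPM in stimulated Th17 but up to 2.24 RPM in resting Th2.

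BRG1 is the ATPase of SWI/SNF complexes, which use ATP to move or evict nucleosomes and are found at enhancers and promoters. Ifng encodes interferon gamma, the signature cytokine of Th1 cells. Il22 encodes interleukin 22, a cytokine that Th17 cells make and that acts on epithelial cells. Ifng is controlled from conserved noncoding elements spread widely on both sides of the gene, which the field names by their distance from the Ifng start. The elements counted here were -54, -34, -22, -6, +18 to +20, +29 and +46, and the sites at -70 and +66, where the insulator and loop-anchoring protein CTCF is known to bind. The -22 element is known to be needed for Ifng expression, and the -6 element is a T cell enhancer.

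The Ifng promoter is printed because its start is where stimulated Th1 and Th2 cells differ below. These are the 250 bases before the start on the plus strand of chromosome 10, from RefSeq on GRCm38.p6, with matches to TATAAA and GGAAA in capitals. It is the reference letters and not those of the Balb/c cells.

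Ifng: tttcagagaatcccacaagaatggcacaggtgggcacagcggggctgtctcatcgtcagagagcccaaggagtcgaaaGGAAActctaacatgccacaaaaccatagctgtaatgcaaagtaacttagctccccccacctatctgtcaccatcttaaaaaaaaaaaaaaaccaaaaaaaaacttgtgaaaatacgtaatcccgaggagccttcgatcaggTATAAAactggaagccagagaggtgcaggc

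TATAAA, the core of a TATA box, begins 30 bases before the start and is held by 12.3% of the 32536 RefSeq promoter windows of the same length, counting both strands. GGAAA, the core recognised by NFAT factors, begins 172 bases before the start, and 55.7% of windows hold it. TTCNNNGAA, the spacing recognised by STAT factors, begins 249 bases before the start, and 7.04% hold it. TGANTCA, the AP-1 letters, and GGTGTGA, the T-box letters, have no match in this window, and 6.73% and 3.33% of all windows hold them. These matches are descriptions of letters only.

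Over the whole locus, stimulated Th1 had the highest BRG1 level of the 6 BRG1 libraries. The locus held 1342 reads or 170 RPM in stimulated Th17, 975 reads or 249 RPM in stimulated Th1 and 715 reads or 168 RPM in stimulated Th2. It held 306 reads or 169 RPM in resting Th1, 183 reads or 137 RPM in resting Th2 and 276 reads or 133 RPM in naive, against 455 reads or 129 RPM in the input. Stimulated Th1 stood apart, while the naive and resting Th2 totals were within counting error of the input. The ratio of BRG1 over input was 1.93 (1.73 to 2.16) in stimulated Th1, and it was between 1.03 and 1.32 in the other 5 libraries. Among 6271 tiles of 400 kb across the genome with at least 100 input reads, the ratio of stimulated Th1 over stimulated Th2 at the locus, 1.48 (1.35 to 1.64), ranked 12 from the highest, and the median tile had 0.993. Stimulated Th17 over stimulated Th1 gave 0.683 (0.629 to 0.743), at rank 4594 and against a median tile of 0.906. Stimulated Th1 over resting Th1 gave 1.47 (1.29 to 1.68), at rank 480 and against a median tile of 0.769. Stimulated Th2 over resting Th2 gave 1.23 (1.04 to 1.45), at rank 857 and against a median tile of 0.874. Over input, the median tile had 0.652 in stimulated Th17, 0.658 in stimulated Th1 and 0.698 in stimulated Th2. It had 0.929 in resting Th1, 0.828 in resting Th2 and 1.00 in naive. An RPM near that of the input therefore stands above the median tile in the stimulated libraries and at it in naive.

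**Figure D1:**
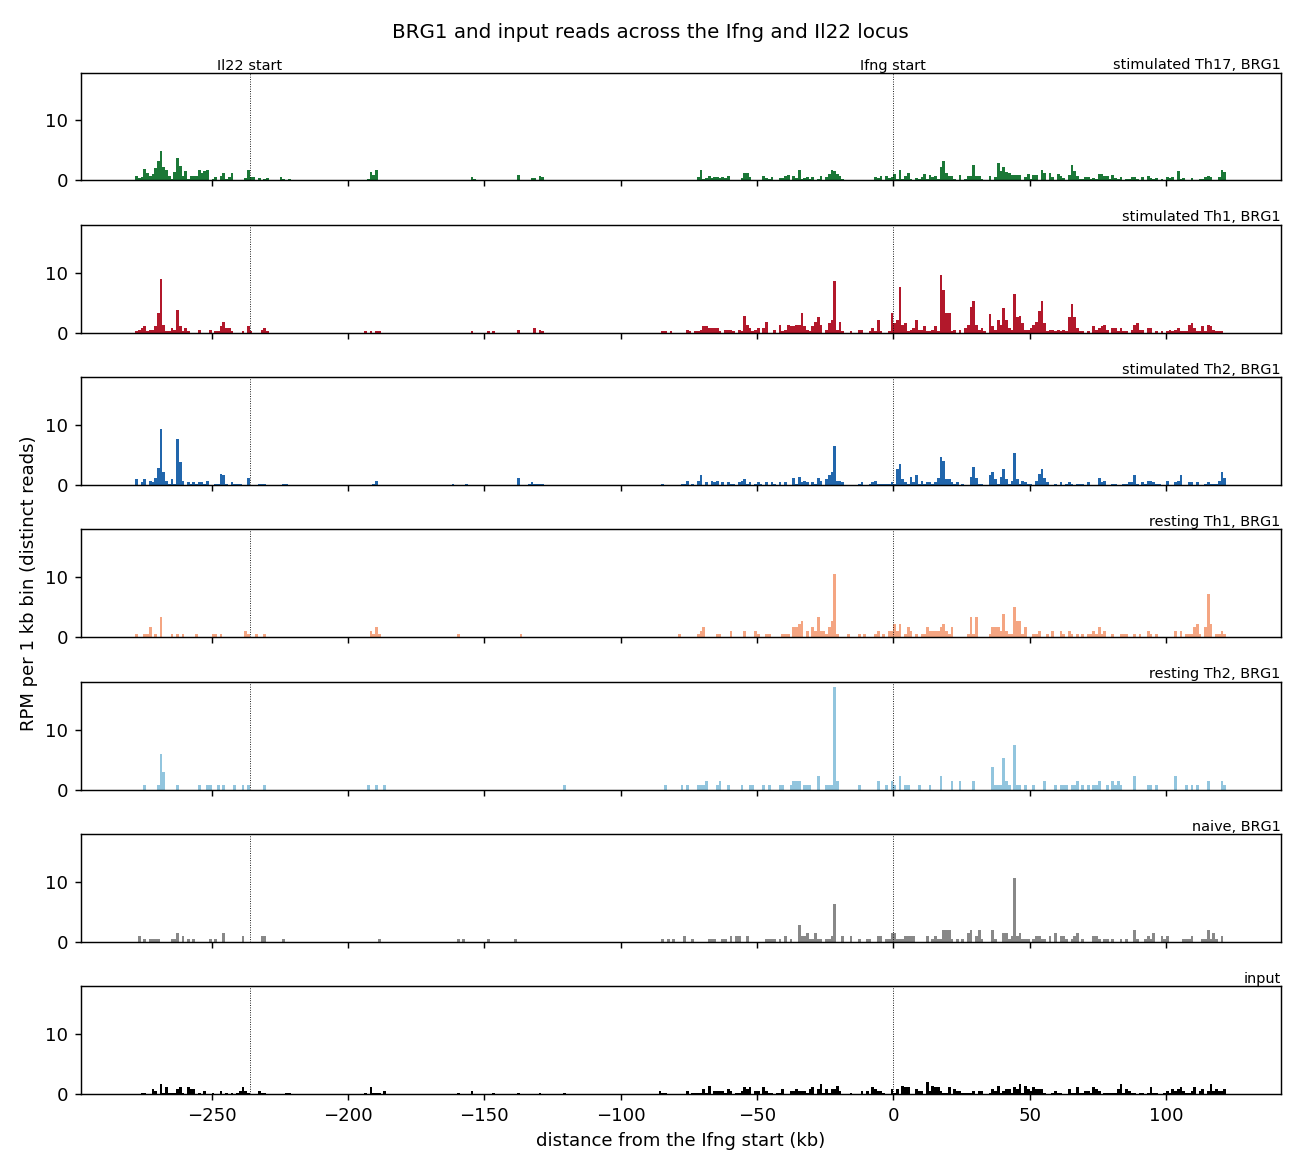
RPM of distinct reads in each 1 kb bin across the 400 kb, 1 panel per library, against distance in kb from the Ifng start; dotted lines mark the Il22 and Ifng starts. Reads fall in a cluster upstream of Il22 and in the 140 kb around Ifng, with a stretch of few reads in every library, input included, between them.

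The reads fell in separate stretches that behaved differently. Within 70 kb either side of the Ifng start, stimulated Th17 had 0.610 RPM per kb, stimulated Th1 1.29, stimulated Th2 0.680, resting Th1 0.818, resting Th2 0.645 and naive 0.662, against 0.544 in the input. There, stimulated Th1 was the highest library, and stimulated Th17 was the BRG1 library closest to the input in RPM. The ratio was 1.89 (1.67 to 2.14) for stimulated Th1 over stimulated Th2, 1.57 (1.35 to 1.85) for stimulated Th1 over resting Th1, and 0.474 (0.426 to 0.527) for stimulated Th17 over stimulated Th1. For stimulated Th2 over resting Th2 it was 1.06 (0.859 to 1.30), an interval that holds 1. In the 52 kb beyond, the ratio of stimulated Th1 over stimulated Th2 was 1.34 (1.00 to 1.81).

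The 42 kb from the locus start to the Il22 start showed another order. Stimulated Th17 had 1.12 RPM per kb there, stimulated Th1 0.802, stimulated Th2 1.03, resting Th1 0.303, resting Th2 0.409 and naive 0.264, against 0.384 in the input. All 3 stimulated libraries were above all 3 unstimulated BRG1 libraries and the input. The ratio was 2.65 (1.69 to 4.32) for stimulated Th1 over resting Th1 and 2.52 (1.63 to 4.07) for stimulated Th2 over resting Th2. It was 1.39 (1.14 to 1.71) for stimulated Th17 over stimulated Th1, the opposite side of 1 from the ratio around Ifng in the same pair, and 1.09 (0.907 to 1.30) for stimulated Th17 over stimulated Th2. Stimulated Th1 over stimulated Th2 gave 0.780 (0.619 to 0.981). In the RefSeq gene order of GRCm38.p6, Mdm1 and Gm40775 come before Il22, so this stretch is not assigned to Il22 alone.

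Between the Il22 start and the 70 kb before Ifng, 108 of 166 bins of 1 kb had no read in any of the 7 libraries, out of 112 such bins in the whole locus. The longest empty stretch was chr10:117657001-117683000, of 26 kb. Over the 166 kb the input level was 0.0563 RPM per kb, against 0.544 around Ifng. In RefSeq, 13 genes lie between Il22 and Ifng, namely 12 pseudogenes and Iltifb, a copy of Il22. These are genes of the reference, and whether the Balb/c cells carry them was not checked. The libraries thus hold little information on this stretch, whether reads matching several places were dropped is not given in the sources used here, and any count at Il22 is uncertain because Iltifb could share its reads.

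At Il22 itself counts were small. Within 1 kb of its start stimulated Th17 had 17 reads, stimulated Th1 5, stimulated Th2 5, resting Th1 1, resting Th2 1 and naive 0, against 1 in the input. Stimulated Th17 was thus highest in RPM, at 2.15, with stimulated Th1 at 1.28 and stimulated Th2 at 1.17. The ratios, 1.69 (0.598 to 5.85) for stimulated Th17 over stimulated Th1 and 1.84 (0.650 to 6.36) for stimulated Th17 over stimulated Th2, both have intervals that hold 1. Over the gene, stimulated Th17 had 11 reads, stimulated Th1 3, stimulated Th2 2, resting Th1 1, resting Th2 0 and naive 2, against 3 in the input. The gene ratio was 1.82 (0.481 to 10.2) for stimulated Th17 over stimulated Th1 and 2.97 (0.648 to 27.6) for stimulated Th17 over stimulated Th2. On total reads, no difference between Th17 cells and the other subsets was detectable at Il22. After division by the genome-wide median ratio of each pair, given below, the gene ratio of stimulated Th17 over stimulated Th2 was 4.77 and passed the 3-fold rule used below, on 11 and 2 reads. Divided instead by the background ratio, that of bins without a called region, it was 2.82 and did not pass. Stimulated Th17 over input was 1.64 (0.433 to 9.16) over the gene, which holds 1. Within 1 kb of the start it was 7.61 (1.19 to 318), on a single input read.

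Ifng carried more reads. Over the gene there were 30 reads or 3.80 RPM in stimulated Th17, 55 or 14.0 RPM in stimulated Th1, 33 or 7.74 RPM in stimulated Th2, 11 or 6.08 RPM in resting Th1, 5 or 3.73 RPM in resting Th2 and 8 or 3.86 RPM in naive, against 13 or 3.68 RPM in the input. Stimulated Th1 was highest and stimulated Th2 next, and stimulated Th17, resting Th2 and naive were near the input in RPM. The median tile over input differs between these libraries, as given above, so this is not the same standing in each. Resting Th1 over input was 1.65 (0.671 to 4.00), which holds 1. The ratio of stimulated Th1 over stimulated Th2 was 1.81 (1.16 to 2.88), and that of stimulated Th17 over stimulated Th1 was 0.271 (0.167 to 0.430). The ratio of stimulated Th1 over resting Th1 was 2.31 (1.19 to 4.89), and that of stimulated Th2 over resting Th2 was 2.08 (0.805 to 6.81), which holds 1. Dividing by the genome-wide median of each pair, given below, leaves 0.468 for stimulated Th17 over stimulated Th1 and 1.54 for stimulated Th1 over resting Th1.

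Within 1 kb of the Ifng start, the ratio of stimulated Th1 over stimulated Th2 was larger than over the gene, though the 2 intervals overlap. There were 12 reads or 1.52 RPM in stimulated Th17, 19 or 4.85 RPM in stimulated Th1, 3 or 0.704 RPM in stimulated Th2, 6 or 3.32 RPM in resting Th1, 3 or 2.24 RPM in resting Th2 and 6 or 2.90 RPM in naive, against 4 or 1.13 RPM in the input. Stimulated Th2 was lowest, and stimulated Th1 was above it by 6.89-fold (2.03 to 36.4). The ratio of stimulated Th17 over stimulated Th1 was 0.313 (0.139 to 0.680). Stimulated Th1 over resting Th1 was 1.46 (0.561 to 4.47), so a gain on stimulation at the promoter was not detectable. At chr10:117877801-117878000, the window just before the start, stimulated Th17 had 2 reads, stimulated Th1 9, stimulated Th2 1, resting Th1 2, resting Th2 1 and naive 0, against 2 in the input.

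**Figure D2:**
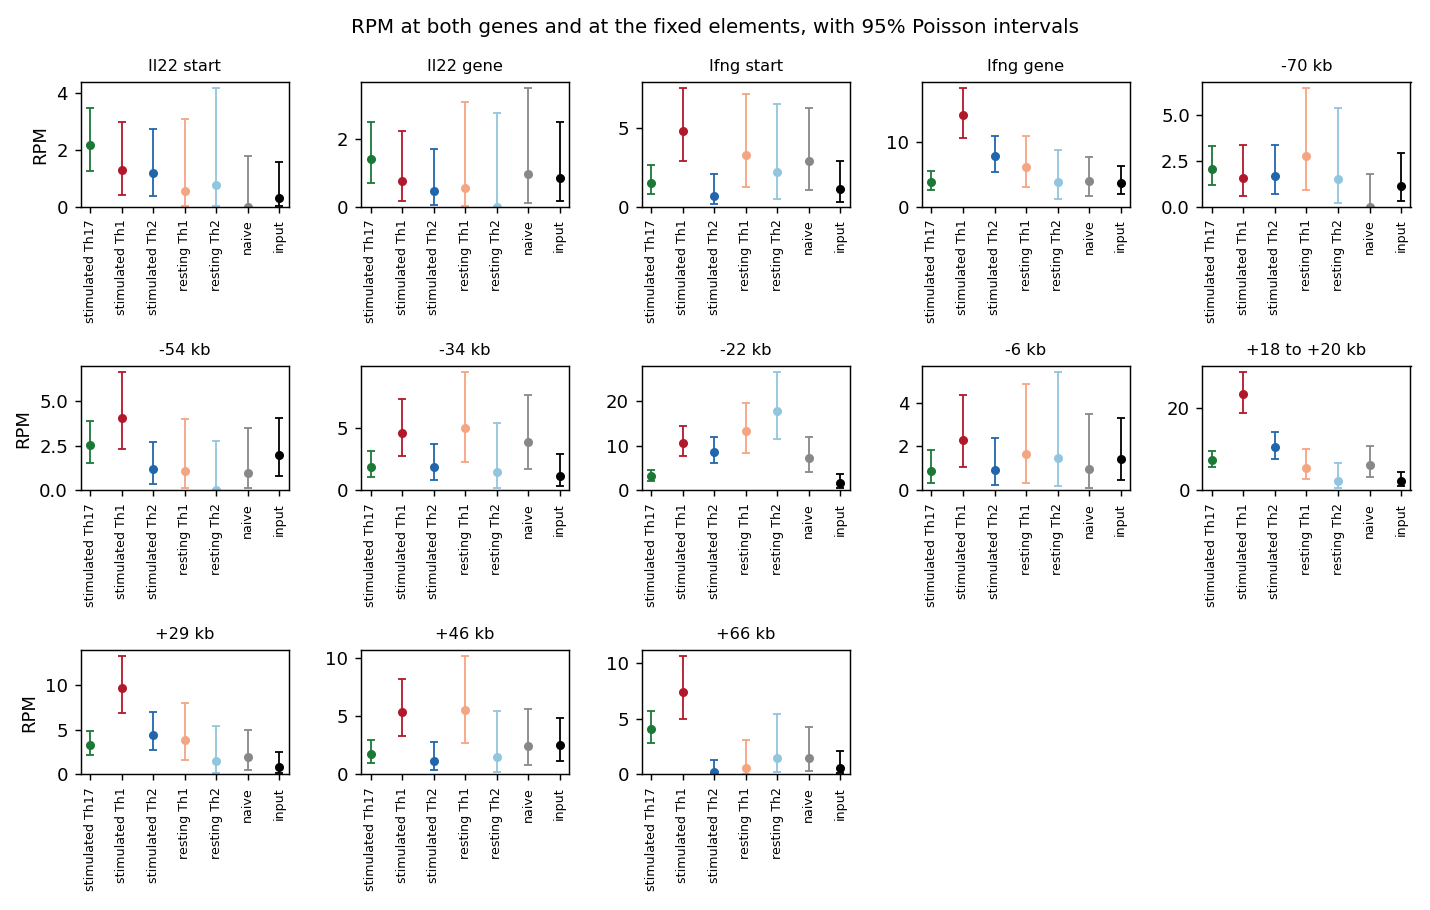
RPM of distinct reads at Il22, at Ifng and at the 9 elements, 1 panel each with its own vertical axis, by library; points are the value of 1 library and bars its 95% Poisson interval. Stimulated Th1 is the highest point at the Ifng start, at Ifng, and at -54, -6, +18 to +20, +29 and +66, while resting Th2 is highest at -22.

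The elements upstream of Ifng did not share a pattern. At -22, stimulated Th17 had 25 reads or 3.17 RPM, stimulated Th1 42 or 10.7 RPM, stimulated Th2 37 or 8.68 RPM, resting Th1 24 or 13.3 RPM, resting Th2 24 or 17.9 RPM and naive 15 or 7.24 RPM, against 6 or 1.70 RPM in the input. BRG1 reads were thus above input there in every library but stimulated Th17, whose interval overlaps that of the input, and before any stimulation. The ratio of stimulated Th2 over resting Th2 was 0.485 (0.282 to 0.847), and that of stimulated Th1 over resting Th1 was 0.808 (0.478 to 1.39). Resting Th2 over naive was 2.47 (1.25 to 5.07) and resting Th1 over naive 1.83 (0.923 to 3.76). Stimulated Th17 over stimulated Th1 was 0.295 (0.173 to 0.496).

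At -34, stimulated Th17 had 15 reads or 1.90 RPM, stimulated Th1 18 or 4.59 RPM, stimulated Th2 8 or 1.88 RPM, resting Th1 9 or 4.98 RPM, resting Th2 2 or 1.49 RPM and naive 8 or 3.86 RPM, against 4 or 1.13 RPM in the input. Both Th1 libraries and the naive one were high, and the ratio of stimulated Th1 over stimulated Th2 was 2.45 (1.01 to 6.51). At -54, stimulated Th17 had 20 reads, stimulated Th1 16, stimulated Th2 5, resting Th1 2, resting Th2 0 and naive 2, against 7 in the input, and stimulated Th1 over stimulated Th2 was 3.48 (1.22 to 12.2). No library was above the input at -54 beyond counting error. The ratio over input was 2.06 (0.802 to 5.92) in stimulated Th1 and 0.592 (0.148 to 2.17) in stimulated Th2. At -6, no library had more than 9 reads, the count of stimulated Th1, and the input had 5. At the CTCF site -70, stimulated Th17 had 16 reads, stimulated Th1 6, stimulated Th2 7, resting Th1 5, resting Th2 2 and naive 0, against 4 in the input. The 3 stimulated libraries did not differ there beyond counting error, their levels lying between 1.53 and 2.03 RPM.

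Downstream, the element at +18 to +20, which is wider than the others, held the most reads of the 9 in all 3 stimulated libraries. Stimulated Th17 had 58 reads or 7.35 RPM, stimulated Th1 92 or 23.5 RPM, stimulated Th2 45 or 10.6 RPM, resting Th1 10 or 5.53 RPM, resting Th2 3 or 2.24 RPM and naive 13 or 6.27 RPM, against 8 or 2.27 RPM in the input. Per kb, +18 to +20 was the highest of the 9 in stimulated Th1 alone, at 5.87 RPM per kb. In stimulated Th17, +66 was higher per kb (2.03 against 1.84), and in stimulated Th2, -22 was higher per kb (4.34 against 2.64). Across libraries, stimulated Th1 was the highest and stimulated Th2 next. The intervals of stimulated Th2 and stimulated Th17 overlap each other and those of resting Th1 and naive. The ratio was 4.25 (2.21 to 9.15) for stimulated Th1 over resting Th1 and 4.72 (1.51 to 23.7) for stimulated Th2 over resting Th2. It was 2.22 (1.54 to 3.25) for stimulated Th1 over stimulated Th2, and 0.313 (0.221 to 0.439) for stimulated Th17 over stimulated Th1. At +29, stimulated Th17 had 26 reads or 3.29 RPM, stimulated Th1 38 or 9.70 RPM, stimulated Th2 19 or 4.46 RPM, resting Th1 7 or 3.87 RPM, resting Th2 2 or 1.49 RPM and naive 4 or 1.93 RPM, against 3 or 0.849 RPM in the input. Stimulated Th1 was again the highest, with its ratio over stimulated Th2 at 2.18 (1.22 to 4.00) and over resting Th1 at 2.51 (1.11 to 6.65).

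At +46, stimulated Th17 had 14 reads or 1.77 RPM, stimulated Th1 21 or 5.36 RPM, stimulated Th2 5 or 1.17 RPM, resting Th1 10 or 5.53 RPM, resting Th2 2 or 1.49 RPM and naive 5 or 2.41 RPM, against 9 or 2.55 RPM in the input. Both Th1 libraries had the highest levels, and the ratio of stimulated Th1 over resting Th1 was 0.969 (0.437 to 2.30). Stimulated Th1 over stimulated Th2 was 4.57 (1.68 to 15.5), and resting Th1 over resting Th2 was 3.71 (0.790 to 34.8), which holds 1. No library was above the input at +46 beyond counting error. The ratio over input was 2.10 (0.924 to 5.22) in stimulated Th1 and 0.460 (0.121 to 1.53) in stimulated Th2.

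The CTCF site +66 gave the sharpest split between subsets. Stimulated Th17 had 32 reads or 4.05 RPM, stimulated Th1 29 or 7.40 RPM, stimulated Th2 1 or 0.235 RPM, resting Th1 1 or 0.553 RPM, resting Th2 2 or 1.49 RPM and naive 3 or 1.45 RPM, against 2 or 0.566 RPM in the input. Stimulated Th17 and stimulated Th1 were high, and stimulated Th2, which is deeper than stimulated Th1, had a single read. The ratio was 31.5 (5.23 to 1289) for stimulated Th1 over stimulated Th2, 17.3 (2.89 to 704) for stimulated Th17 over stimulated Th2 and 13.4 (2.22 to 547) for stimulated Th1 over resting Th1. Stimulated Th17 over stimulated Th1 was 0.548 (0.321 to 0.938). The reads peaked in the window chr10:117943201-117943400, with 15 in stimulated Th17, 11 in stimulated Th1 and 0 in the other 5 libraries. In that window, the reads were 7 plus and 8 minus strand in stimulated Th17 and 3 plus and 8 minus strand in stimulated Th1.

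Summed over the 9 elements, 20 kb in all, stimulated Th17 had 213 reads, stimulated Th1 271, stimulated Th2 131, resting Th1 71, resting Th2 39 and naive 52, against 48 in the input. The ratio of BRG1 over input was 5.09 (3.73 to 7.07) in stimulated Th1 and between 1.85 and 2.89 in the other 5 libraries. These elements held 27.8% of the locus reads in stimulated Th1 and 15.9% in stimulated Th17, against 10.5% in the input. The sums gave 2.25 (1.82 to 2.79) for stimulated Th1 over stimulated Th2, 1.76 (1.35 to 2.32) for stimulated Th1 over resting Th1, 1.06 (0.734 to 1.55) for stimulated Th2 over resting Th2, 0.390 (0.324 to 0.469) for stimulated Th17 over stimulated Th1 and 0.878 (0.703 to 1.10) for stimulated Th17 over stimulated Th2. Stimulated Th1 was thus above stimulated Th2 over the set, while stimulated Th2 was not above resting Th2 beyond counting error. The whole stretch within 70 kb of Ifng had 1.89 (1.67 to 2.14) for stimulated Th1 over stimulated Th2, an interval that overlaps that of the set.

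**Figure D3:**
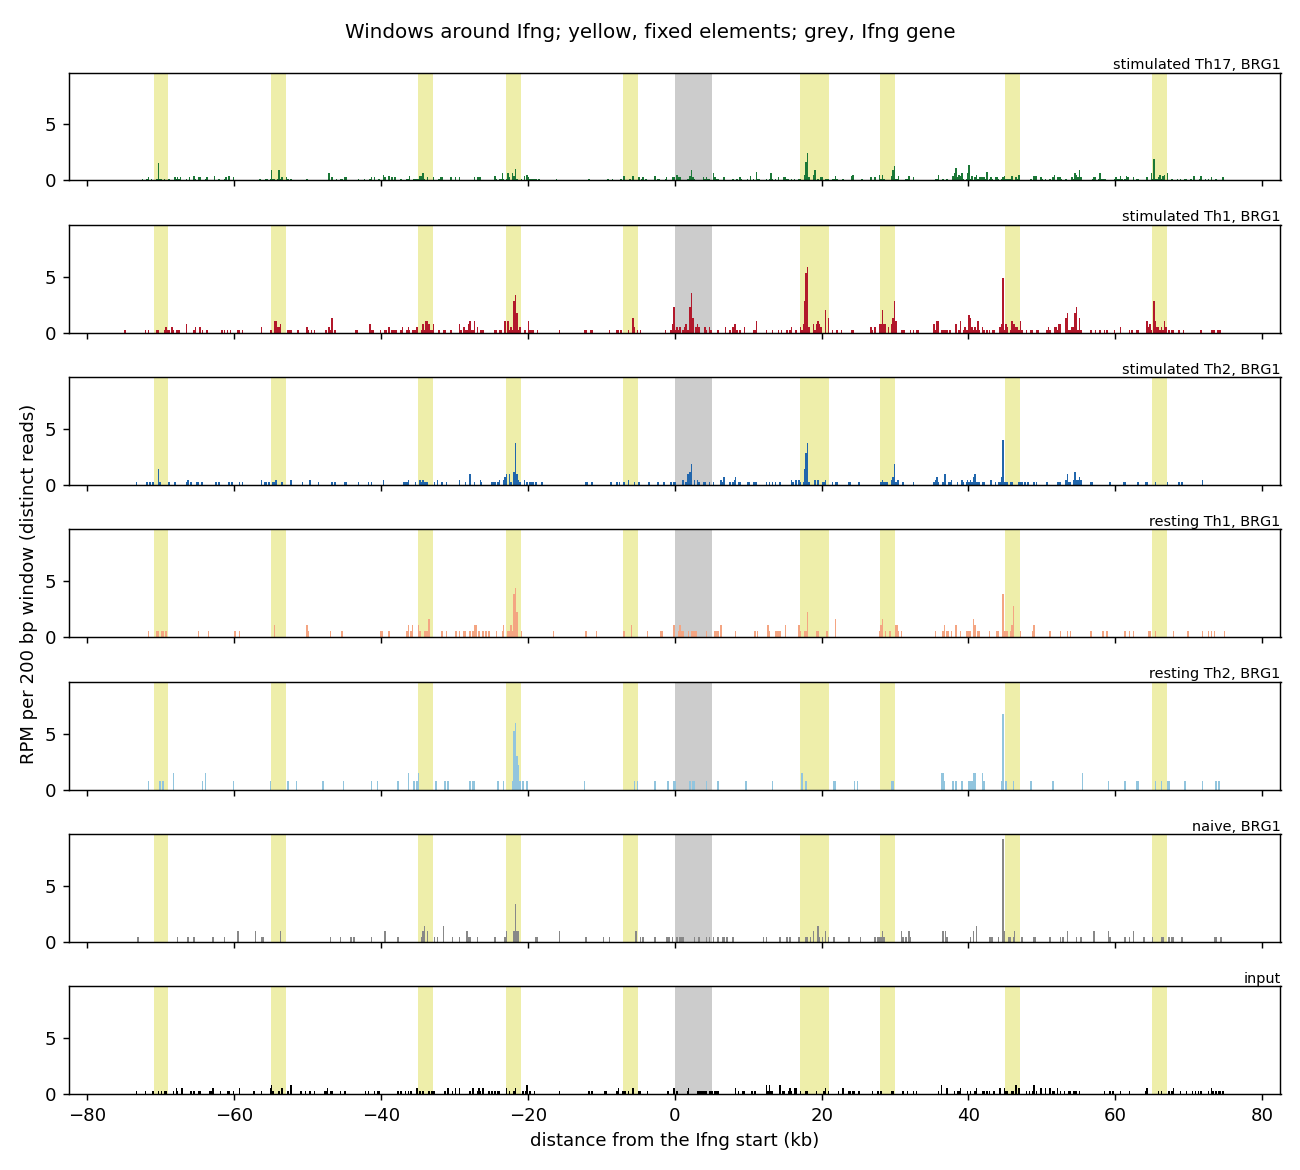
RPM of distinct reads in 200 bp windows within 75 kb of the Ifng start, 1 panel per library on 1 vertical scale; yellow bands are the 9 elements and the grey band is Ifng. Narrow peaks stand near -22, +18, +30 and +44.7, and at +65.3 in stimulated Th17 and stimulated Th1.

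BRG1 regions were then called without regard to the elements, as windows whose count exceeded the input and the genome mean at a Poisson tail of 1e-05, with every library thinned to 1340208 distinct reads. Of the 2000 windows, stimulated Th17 had 1 called, stimulated Th1 6, stimulated Th2 3, resting Th1 4, resting Th2 3 and naive 2. These are 0.05%, 0.3%, 0.15%, 0.2%, 0.15% and 0.1% of the locus, in the same order of libraries. Genome-wide, stimulated Th17 had 0.0504% of windows called, stimulated Th1 0.107%, stimulated Th2 0.0966%, resting Th1 0.0594%, resting Th2 0.0737% and naive 0.0256%. The stimulated Th17 share of the locus was near its genome share, and those of naive, resting Th1, resting Th2, stimulated Th1 and stimulated Th2 were above it, on counts of 2 to 6 windows. With all distinct reads, which favours the deeper libraries, stimulated Th17 had 13 windows called, stimulated Th1 20, stimulated Th2 10, resting Th1 4, resting Th2 3 and naive 2. Genome-wide, stimulated Th17 then had 0.498% called, stimulated Th1 0.332%, stimulated Th2 0.341%, resting Th1 0.0828%, resting Th2 0.0737% and naive 0.046%.

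Joined windows made 9 regions at equal depth and 23 with all reads. The region at +18.0, chr10:117895801-117896200, is 400 bp long and held the most reads of the 9 in all 3 stimulated libraries. It had 32 reads or 4.05 RPM in stimulated Th17, 44 or 11.2 RPM in stimulated Th1, 28 or 6.57 RPM in stimulated Th2, 5 or 2.77 RPM in resting Th1, 1 or 0.746 RPM in resting Th2 and 2 or 0.965 RPM in naive, against 2 or 0.566 RPM in the input. It lies inside the +18 to +20 element. Per kb, it had 10.1 RPM in stimulated Th17, 28.1 in stimulated Th1 and 16.4 in stimulated Th2. The region at -262.1, described below, was higher per kb in stimulated Th17 (14.6) and stimulated Th2 (25.8), and the one at -268.3 was level with it in stimulated Th1 (28.1). Both strands carried reads there, 28 plus and 16 minus in stimulated Th1.

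The region at -21.8, chr10:117856001-117856400, inside the -22 element, is also 400 bp long and held the most reads in resting Th1 and resting Th2. It had 11 reads or 1.39 RPM in stimulated Th17, 24 or 6.13 RPM in stimulated Th1, 21 or 4.93 RPM in stimulated Th2, 15 or 8.30 RPM in resting Th1, 15 or 11.2 RPM in resting Th2 and 9 or 4.34 RPM in naive, against 3 or 0.849 RPM in the input. Per kb, it had 20.7 RPM in resting Th1 and 28.0 in resting Th2, below the region at +115.7 in resting Th1 (24.9) and the one at +44.7 in resting Th2 (33.6). It was called at equal depth in naive, resting Th1, resting Th2 and stimulated Th2. Unstimulated cells already carried BRG1 reads here, and neither stimulated Th1 nor stimulated Th2 was above its resting counterpart.

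The region at +44.7, chr10:117922601-117922800, is 200 bp long and was the highest per kb in naive and resting Th2, and it had 2 reads in stimulated Th17, the deepest library. It had 2 reads or 0.253 RPM in stimulated Th17, 19 or 4.85 RPM in stimulated Th1, 17 or 3.99 RPM in stimulated Th2, 7 or 3.87 RPM in resting Th1, 9 or 6.72 RPM in resting Th2 and 19 or 9.17 RPM in naive, against 0 in the input. It was called in naive, resting Th1, resting Th2 and stimulated Th1. The window ends just outside the +46 element, and its ratio of stimulated Th1 over stimulated Th2, 1.22 (0.598 to 2.49), has an interval that holds 1. With repeats kept, stimulated Th17 had 2 reads there, stimulated Th1 37, stimulated Th2 24, resting Th1 9, resting Th2 27 and naive 49. The part of repeated reads in this level was not tested.

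Of the other regions, -268.3 (chr10:117609601-117609800), upstream of Il22, had 11 reads from stimulated Th17, 22 from stimulated Th1 and 20 from stimulated Th2, while resting Th1 had 2, resting Th2 5 and naive 0, against 1 in the input. At -262.1 (chr10:117615801-117616000), stimulated Th17 had 23 reads, stimulated Th1 12, stimulated Th2 22, resting Th1 0, resting Th2 0 and naive 1, against 1 in the input. The second of these had at most 1 read in each unstimulated library, while the first, in RPM, was higher in resting Th2 (3.73) than in stimulated Th17 (1.39). At +29.9 (chr10:117907801-117908000), stimulated Th17 had 10 reads, stimulated Th1 11 and stimulated Th2 8, against 0 in resting Th1, resting Th2, naive and the input. At +53.5 (chr10:117931401-117931600), stimulated Th17 had 0 reads, stimulated Th1 7, stimulated Th2 4, resting Th1 1, resting Th2 0 and naive 2. The region at +115.7 (chr10:117993601-117993800) was called in resting Th1 alone, where stimulated Th17 had 1 read, stimulated Th1 3, stimulated Th2 1, resting Th1 9, resting Th2 0 and naive 2.

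**Figure D4:**
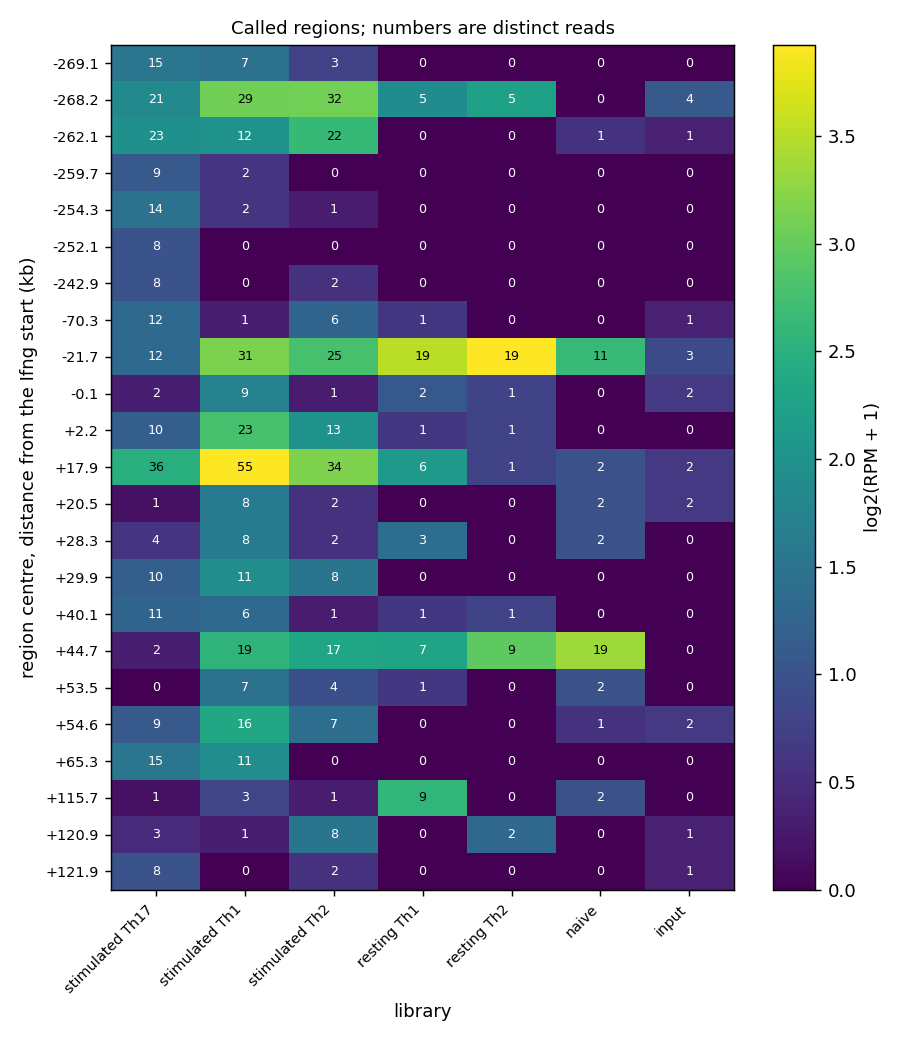
The 23 regions called with all distinct reads, by the distance of their centre from the Ifng start in kb, and the 7 libraries; colour is log2(RPM + 1) and the printed numbers are distinct reads. The rows at -21.7 and +44.7 carry reads in unstimulated libraries, the row at +65.3 is filled in stimulated Th17 and stimulated Th1 alone, and the rows from -259.7 to -242.9 hold reads mainly in stimulated Th17.

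The larger set of 23 regions adds sites that the equal-depth call missed. Within Ifng, at +2.2 (chr10:117880001-117880400), stimulated Th17 had 10 reads, stimulated Th1 23, stimulated Th2 13, resting Th1 1, resting Th2 1 and naive 0, against 0 in the input. The ratio there was 10.6 (1.72 to 437) for stimulated Th1 over resting Th1 and 0.216 (0.0917 to 0.471) for stimulated Th17 over stimulated Th1. This site was called in stimulated Th1 and stimulated Th2 alone, so these ratios draw on the counts that selected it and are no separate support. Upstream of Il22, 4 regions were called in stimulated Th17 alone. The one at -254.3 (chr10:117623601-117623800) had 14 reads in stimulated Th17, against 2 in stimulated Th1 and 1 in stimulated Th2, and the other 4 libraries had 0. The ratio was 7.56 (1.15 to 320) for stimulated Th17 over stimulated Th2 and 3.47 (0.798 to 31.5) for stimulated Th17 over stimulated Th1, which holds 1. The region was selected by its stimulated Th17 count, so a ratio above 1 there is no separate support. At -252.1 (chr10:117625801-117626000), stimulated Th17 had 8 reads, 7 on the plus and 1 on the minus strand, and the other 6 libraries had 0. At -259.7 (chr10:117618201-117618400), stimulated Th17 had 9 reads, stimulated Th1 2 and the other 5 libraries 0. At -242.9 (chr10:117635001-117635200), 6.9 kb before the Il22 start, stimulated Th17 had 8 reads, stimulated Th2 2 and the other 5 libraries 0. Stimulated Th17 is the deepest library, and none of these 4 was called at equal depth.

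Changes between libraries were read against the rest of the genome by 1 rule. A region or 1 kb bin with at least 10 reads in a pair was called higher or lower where its RPM ratio reached 3-fold in either direction with an interval that did not hold 1. Regions had entered the set through a call in these same libraries, so a region called in a single library was likely to be higher there. The 1 kb bins were not chosen by such a call. The median log2 ratio over all tested regions of the genome was -0.79 for stimulated Th17 over stimulated Th1, -0.68 for stimulated Th17 over stimulated Th2, 0.12 for stimulated Th1 over stimulated Th2, 0.58 for stimulated Th1 over resting Th1 and 0.33 for stimulated Th2 over resting Th2. It was 0.68 for resting Th1 over naive, 0.75 for resting Th2 over naive and -0.16 for resting Th1 over resting Th2. A 3-fold ratio on total reads is therefore less than 3-fold relative to most regions in some pairs, and calls are also given after division by the median.

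For stimulated Th1 over stimulated Th2, 1 of 8 tested regions was higher and 0 lower, and genome-wide 2.54% were higher and 3.8% lower. It was the window at +65.3, at least 3.99-fold higher against the floor of 3 reads, with an exact lower bound of 2.73, and it kept the call after division by the median. That window was called at equal depth in stimulated Th1 alone, so its ratio draws on the counts that selected it. In 1 kb bins, 9 of 43 were higher and 2 lower, which is 20.9% and 4.65%, and genome-wide 2.02% were higher and 4.04% lower. The 9 higher bins were centred at -33.5, -0.5, 19.5, 20.5, 28.5, 46.5, 64.5, 65.5 and 66.5, in or beside the -34 element, the Ifng start and the elements +18 to +20, +29, +46 and +66. The 2 lower bins were at -261.5, upstream of Il22, and at 120.5. The median bin ratio was 1.76 in the locus and 1.01 genome-wide. The 9 elements are wider than a bin, so these shares are not their background. No genome-wide share is given for intervals of their width, so element counts in this and the other pairs only describe these elements. All 9 were tested, 3 were higher (-54, +46 and +66) and 0 lower, and 8 had a ratio above 1, the exception being -70 at 0.932 (0.259 to 3.24). The stretch within 70 kb of the Ifng start, taken whole, gave 1.89 (1.67 to 2.14) in this pair. A ratio above 1 is thus not shown to be particular to the elements. At -54 and +46, stimulated Th1 was not above the input beyond counting error.

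For stimulated Th17 over stimulated Th1, 3 of 7 regions were lower and 0 higher, and genome-wide 16.3% were lower and 3.54% higher. They were -268.3 at 0.248 (0.109 to 0.534), -21.8 at 0.227 (0.101 to 0.482) and +44.7 at 0.0522 (0.0059 to 0.217). Only +44.7 kept the call after division by the median, at 0.0902. Among the 23 regions, the site at -268.3 is 400 bp long, with its centre at -268.2, and it passed the rule in no pair on total reads. Its ratio there was 0.359 for stimulated Th17 over stimulated Th1 and 0.354 for stimulated Th17 over stimulated Th2. For stimulated Th1 over resting Th1 it was 2.68. In 1 kb bins, 17 of 80 were lower and 5 higher, and genome-wide 3.14% were lower and 6.96% higher. All 17 lower bins lay between -46.5 and 54.5, around Ifng. The 5 higher ones lay at -253.5, -252.5 and -251.5, upstream of Il22, and at 120.5 and 121.5. The first 3 had 10, 12 and 13 reads in stimulated Th17 and 0 each in stimulated Th1, at least 1.65-fold, 1.99-fold and 2.15-fold higher. The median bin ratio was 0.702 in the locus and 1.24 genome-wide. Of the 9 elements, 3 were lower (-22, +18 to +20 and +46) and 0 higher, none of which kept the call after division by the median.

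For stimulated Th17 over stimulated Th2, 3 of 7 regions were lower and 1 higher, and genome-wide 17.2% were lower and 3.43% higher. The lower ones were -268.3 at 0.297 (0.129 to 0.650), -21.8 at 0.283 (0.123 to 0.614) and +44.7 at 0.0635 (0.00712 to 0.268), and the last kept the call after division by the median, at 0.102. The region at -268.3 was called at equal depth in stimulated Th2 alone, so its ratio draws on the counts that selected it. The higher one was +65.3, at least 2.70-fold, with a lower bound of 1.94. In 1 kb bins, 7 of 64 were higher and 4 lower, and genome-wide 7.11% were higher and 4.41% lower. Among them, the bin at 65.5 had 20 reads in stimulated Th17 and 1 in stimulated Th2, and the bin at 38.5 had 23 reads in stimulated Th17 and 1 in stimulated Th2. Of the 9 elements, +66 alone was called, as higher, and after division by the median -54 was higher too, at 3.47.

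For stimulated Th1 over resting Th1, 5 of 8 regions were higher and 1 lower, and genome-wide 24% were higher and 4.68% lower. The higher ones with a resting count above 0 were -268.3 at 5.08 (1.25 to 44.5) and +18.0 at 4.06 (1.61 to 13.1). The other 3, at -262.1, +29.9 and +65.3, had 0 reads in resting Th1 and were at least 1.85-fold, 1.69-fold and 1.69-fold higher, bounds below 3. The regions at +18.0, +29.9 and +65.3 were called at equal depth in stimulated Th1 and not in resting Th1. Their ratios thus draw on the counts that selected them. None of the 5 kept the call after division by the median. The lower one was +115.7, at 0.154 (0.0268 to 0.616), which kept it. That region was called in resting Th1 alone, so its ratio draws on the counts that selected it. In 1 kb bins, 9 of 33 were higher and 1 lower, and genome-wide 16.7% were higher and 1.97% lower. Of the 9 elements, 2 were higher (+18 to +20 and +66), of which +66 kept the call after division by the median, at 8.92.

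For stimulated Th2 over resting Th2, 2 of 5 regions were higher and 0 lower, and genome-wide 14.4% were higher and 5.02% lower. They were +18.0 at 8.80 (1.46 to 360), on a single read in resting Th2, and -262.1, at least 2.31-fold, and both kept the call after division by the median. The region at -262.1 was called at equal depth in stimulated Th2 alone, so its ratio draws on the counts that selected it. In 1 kb bins, 3 of 18 were higher and 0 lower, and genome-wide 8.29% were higher and 2.13% lower. Of the 4 elements tested among the 9, +18 to +20 was higher, and it kept the call at 3.75.

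Between the unstimulated libraries few regions and bins had enough reads to be tested. For resting Th1 over naive, 1 of 3 regions was higher and 0 lower, against genome-wide shares of 16% and 0.792%. It was +115.7 at 5.16 (1.07 to 49.0), which lost the call after division by the median. That region entered the set through its call in resting Th1 alone, so this ratio draws on the counts that selected it. In 1 kb bins, 1 of 6 was higher and 0 lower, against 10% and 1.08%. For resting Th2 over naive, 0 of 2 regions and 0 of 3 bins were called in either direction, against 20.4% higher and 1.06% lower regions and 15.9% higher and 1.33% lower bins. For resting Th1 over resting Th2, 0 of 2 regions were called, against 2.14% higher and 4.75% lower. There, 1 of 5 bins, at 115.5, was higher and 0 lower, against 1.65% and 5.05%. No one of the 9 elements was called in any of these 3 pairs, where 5, 3 and 4 of them could be tested. After division by the median, +44.7 was lower in resting Th1 than in naive, at 0.263, and +18 to +20 was lower in resting Th2 than in naive, at 0.212.

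Over the 151 bins of 1 kb with at least 10 reads in all libraries together, Pearson's r between profiles was 0.45 for stimulated Th1 and stimulated Th2, 0.42 for resting Th1 and resting Th2 and 0.40 for resting Th1 and naive. It was 0.21 for stimulated Th17 and stimulated Th1 and 0.31 for stimulated Th17 and stimulated Th2. These describe bins that share mappability and lie side by side, and many bins hold few reads, so no order is read from them.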

How the data were processed

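For each library, the authors deposited a list of aligned reads with each read's chromosome, start, end and strand in base positions, with reads 34 bases long and no count or signal of their own, per the files themselves. The genome build is mm9, per the submitters' processing notes. No aligner or filter is named in those sources. Chromatin was cut with micrococcal nuclease and sonicated, and libraries had 18 PCR cycles and a size selection of 250 to 300 bases, per the labels' protocols.

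From these lists, reads that share a start and strand were counted once, chromosome Y was dropped, and 5′ ends were moved 75 bp towards the fragment centre and counted in 200 bp windows. Windows were called at a Poisson tail of 1e-05, with the expected count set by the genome mean or, where larger, by the scaled input in the 1, 5 or 10 kb around, and joined over gaps of up to 1 window. Regions were then counted with all distinct reads, and RPM ratios of 8 pairs got conditional exact 95% intervals. Elements were taken 1 kb either side of their distance. A ratio against 0 reads uses a floor of 3 counts in that library and is given as a lower bound. A self-test on simulated reads with an even background recovered most planted windows and ratios. Its planted ratios had higher counts than most in the locus, so it says little on the low counts here. Named are both genes, the 9 elements, regions of the equal-depth set passing the 3-fold rule and the 3 highest regions of each library. Other sites named among the 23 regions were chosen after their values were seen. The members and lists were chosen with earlier results of these data known. Python 3.11.15, numpy 2.4.6, scipy 1.17.1 and pandas 2.3.3 were used.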

Additional observations from a re-analysis of the deposited data

Results flagged for a closer look

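At the region +44.7 kb from the Ifng start, the Th1 and Th2 libraries lay on opposite sides of 1 on stimulation, by total reads. Stimulated Th1 over resting Th1 gave 1.25 (0.504 to 3.53) and stimulated Th2 over resting Th2 gave 0.594 (0.250 to 1.51). After division by the genome-wide median ratio both were below 1, at 0.835 in Th1 and 0.472 in Th2, so the opposite directions rest on the scaling by total reads or background reads. Both intervals on total reads hold 1, each subset has 1 library per state, and the difference between the 2 ratios was not tested.

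At the -34 element the directions by total reads were the other way round. The ratio was 0.923 (0.394 to 2.33) for stimulated Th1 over resting Th1 and 1.26 (0.251 to 12.2) for stimulated Th2 over resting Th2. The Th2 libraries had 8 reads after stimulation and 2 at rest. The opposite directions did not hold under the other scalings. Division by the background ratio gave 1.09 in Th1 and 1.36 in Th2, and division by the median gave 0.615 in Th1 and 1.00 in Th2. This difference was not tested either.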

How the results depend on the processing

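With 1 library per group, counting error is the only error that could be measured, and most counts in the locus are below 30 reads. No paired analysis was possible because each group has 1 library, and no library could be left out. None of the 13 called ratios at an element or gene changed direction under any alternative that could test it. Of all 70 such ratios, 9 crossed 1 after division by the median ratio and 4 after division by the background ratio, none of them called. Of 36 ratios at regions, 4 crossed 1 after division by the median, none of them called. Of 13 element ratios called, 13 stayed called with all deposited reads, 11 with 5′ ends not moved, 7 after division by the median ratio, 13 after division by the background ratio, 7 with elements taken 2 kb either side, and 4 of the 11 that could be tested at equal depth. The cause of each change was not tested, except that equal depth and a minimum of 20 reads leave fewer reads or features to test. A grid moved by 100 bp moved no count of called regions by over 1.5 times.

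Called regions in stimulated Th17, against 1 in the main call, were 2 with all deposited reads, 0 with 5′ ends not moved, 12 with all distinct reads and 0 at a tail of 1e-07. In stimulated Th1, against 5, they were 10 with all deposited reads, 14 with all distinct reads, 1 at a tail of 1e-07 and 3 when thinned reads were drawn again with seed 2, a setting chosen after seeing the data. In stimulated Th2, against 3, they were 5 with all deposited reads and 8 with all distinct reads. In resting Th1, against 3, they were 6 with all deposited reads and 1 at a tail of 1e-07. In naive, against 2, they were 7 with all deposited reads.

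Differing regions were counted in both directions together. For stimulated Th17 over stimulated Th1, against 3, they were 7 with all deposited reads, 1 after division by the median and 0 at equal depth. For stimulated Th17 over stimulated Th2, against 4, they were 2 after division by the median, 1 at equal depth and 2 with at least 20 reads. For stimulated Th1 over stimulated Th2, against 1, they were 5 with all deposited reads and 0 at equal depth and with at least 20 reads. For stimulation in Th1, against 6, they were 3 with 5′ ends not moved, 1 after division by the median, 1 at equal depth and 2 with at least 20 reads. For stimulated Th2 over resting Th2, against 2, they were 0 at equal depth. For resting Th1 over naive, against 1, they were 2 with all deposited reads and 0 with 5′ ends not moved, at equal depth and with at least 20 reads. For resting Th2 over naive, against 0, they were 1 with all deposited reads and 1 at 2-fold. For resting Th1 over resting Th2, against 0, they were 2 with all deposited reads.

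Differing 1 kb bins, all of whose alternatives were added after seeing the data, also moved. For stimulated Th17 over stimulated Th1, against 22, they were 2 at equal depth and 6 with at least 20 reads. For stimulated Th17 over stimulated Th2, against 11, they were 2 and 4 in those settings. Between stimulated Th1 and stimulated Th2, against 11, they were 1 and 3. For stimulation in Th1, against 10, they were 4 after division by the median, 2 at equal depth and 6 with at least 20 reads. For stimulated Th2 over resting Th2, against 3, they were 5 with all deposited reads and 1 at equal depth and with at least 20 reads. For resting Th1 over naive, against 1, they were 5 with all deposited reads and 0 after division by the median, at equal depth and with at least 20 reads. For resting Th2 over naive, against 0, they were 5 with all deposited reads and 1 with 5′ ends not moved, after division by the background ratio and at 2-fold. For resting Th1 over resting Th2, against 1, they were 3 with all deposited reads and 0 at equal depth and with at least 20 reads.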
